A study of Homo sapiens with 8 samples.

Results

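The Siglecs are the subject here: 10 human genes for sialic-acid-binding immunoglobulin-like lectins (SIGLEC1, CD22, CD33, SIGLEC5, SIGLEC6, SIGLEC7, SIGLEC8, SIGLEC9, SIGLEC10 and SIGLEC14), taken by name from the 22627 gene symbols in the tables. Their transcripts were measured by RNA sequencing in NB4, an established human cell line from acute promyelocytic leukaemia. The PML-RARA fusion protein holds these cells at the promyelocyte stage, and all-trans retinoic acid (ATRA) lets them mature into granulocyte-like cells. Each gene's level is the sum of the FPKM (fragments counted per length of transcript and per mapped fragments of the library) of its RefSeq transcript models.

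Cells carried a lentiviral hairpin, either shTFEB, directed at the mRNA of the lysosome and autophagy transcription factor TFEB, or shScr, with a scrambled sequence. The 4 groups were shTFEB cells given 1 µM ATRA for 72 h, shTFEB cells given ethanol vehicle for 72 h, shScr cells given 1 µM ATRA for 72 h and shScr cells given vehicle for 72 h. The labels name 2 samples in each group, 8 in all, but each group has 1 table with 1 FPKM and 1 pair of bounds per model. No spread between samples could therefore be computed, no test was run, and a difference is described by its size and by whether the deposited bounds overlap. Those bounds cover the estimation of a single table and not the variation between cultures. The labels do not say whether a hairpin line was 1 clone, and untransduced NB4 were not analysed here.

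Siglecs are cell-surface receptors of blood cells that read sialic acid, the sugar that caps most glycans of human cells. An outer V-set immunoglobulin domain binds the sugar, and in most members the tail inside the cell carries inhibitory tyrosine motifs that recruit the phosphatases SHP-1 and SHP-2. A smaller set, here SIGLEC14, lacks these motifs and pairs with the activating adaptor DAP12, while the macrophage receptor SIGLEC1 has a short tail without them. CD33 marks early myeloid cells and is a drug target in acute myeloid leukaemia; several related members are better known from mature neutrophils, monocytes, eosinophils, natural killer cells or B cells.

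TFEB itself (hg19 chr6:41651716-41703997) had 8.44 FPKM in shTFEB ATRA cells, 1.35 FPKM in cells labelled shTFEB vehicle, 19.4 FPKM in shScr ATRA cells and 1.20 FPKM in shScr vehicle cells. The hairpin label thus matched a lower TFEB mRNA under ATRA (2.30-fold lower, bounds apart) but not under vehicle, where the bounds of 1.11 to 1.63 FPKM and 0.928 to 1.52 FPKM overlapped. The vehicle group is called "labelled shTFEB vehicle" for that reason. Relative sequencing depth, read from the upper bounds of 13840 models listed at 0 in every table, was 0.911 in shTFEB ATRA, 1.17 in labelled shTFEB vehicle and 1.05 in shScr ATRA, with shScr vehicle set to 1. MPO, the myeloperoxidase of promyelocytes, had 594 FPKM in shTFEB ATRA, 2462 FPKM in labelled shTFEB vehicle, 662 FPKM in shScr ATRA and 3871 FPKM in shScr vehicle cells, so a defining promyelocyte transcript was abundant in every group, though lower with ATRA in both lines. Of 13 markers of promyelocytes and of this line, ELANE, KIT, CD34 and CD7 stayed under 1 FPKM throughout. More genes of this list fell than rose with ATRA by the 2-fold mark defined below, in each line. MYB fell in both lines as MPO did, whereas CEBPE and CD38 rose in both. CEBPE had 193 FPKM in shTFEB ATRA, 32.3 FPKM in labelled shTFEB vehicle, 224 FPKM in shScr ATRA and 27.2 FPKM in shScr vehicle cells. CD38 had 94.0 FPKM in shTFEB ATRA, 11.5 FPKM in labelled shTFEB vehicle, 108 FPKM in shScr ATRA and 11.6 FPKM in shScr vehicle cells.

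The sequences bear on the measurement at 1 place above all. SIGLEC14 and SIGLEC5 are neighbours on chromosome 19, and in the GENCODE transcripts of their models the first 642 coding bases are identical. Over 1162 aligned coding bases the identity was 84.7%. The 60 coding bases from position 613 to 672 are shown because they contain the end of that identical stretch; the capital is the position at which the genes part.
SIGLEC14: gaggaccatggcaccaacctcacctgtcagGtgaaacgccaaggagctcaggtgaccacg
SIGLEC5: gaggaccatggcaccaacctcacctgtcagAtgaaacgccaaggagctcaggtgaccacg
Reads that fall within the shared stretch can be assigned to either gene, so the split between SIGLEC14 and SIGLEC5 is uncertain and their sum is given beside them below. The next longest identical coding run among all Siglec pairs compared was 124 bases, between SIGLEC10 and SIGLEC11, and no other pair exceeded 54.

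The second set of sequences shows how models of 1 gene are told apart. CD33 has 3 models, and in NM_001082618 the exon of 381 bases that encodes the sialic-acid-binding V-set domain is left out. The 30 coding bases across the junctions are given with the exon on the right in capitals, on the plus strand of chromosome 19 (GENCODE annotation of GRCh38). In the full-length model NM_001772 the first junction joins base 51225155 to base 51225218 and the second joins base 51225598 to base 51225803; in NM_001082618 base 51225155 is joined to base 51225803.
NM_001772, exon 1 to exon 2: ccctgctgtgggcagGGGCCCTGGCTATGG
NM_001772, exon 2 to exon 3: ctgtgcatgtgacagACTTGACCCACAGGC
NM_001082618, exon 1 to exon 2: ccctgctgtgggcagACTTGACCCACAGGC
The skipped form keeps the left side of the upper junction and the right side of the middle one, and reads over these joints or within the 381 bases are among those that separate the forms, beside the annotated ends of their outer exons.

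CD33 was the most abundant Siglec of both vehicle groups and the steadiest of the 10 genes. The gene (hg19 chr19:51728335-51743274) had 25.6 FPKM in shTFEB ATRA cells, 25.3 FPKM in labelled shTFEB vehicle cells, 29.3 FPKM in shScr ATRA cells and 23.4 FPKM in shScr vehicle cells. Its log2 ratio of ATRA to vehicle, after 1 FPKM was added to each value as in every log2 ratio here, was 0.02 in shTFEB cells and 0.31 in shScr cells. Only between shScr ATRA (26.5 to 32.1 FPKM) and shScr vehicle (20.9 to 25.9 FPKM) did its bounds lie apart, and no comparison reached a 2-fold difference.

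The other 9 Siglecs were low before ATRA. Summed, they had 7.97 FPKM in labelled shTFEB vehicle cells and 5.76 FPKM in shScr vehicle cells, and CD33 made up 76.0% of the family total in labelled shTFEB vehicle and 80.2% in shScr vehicle cells. With ATRA the same 9 genes summed to 78.4 FPKM in shTFEB cells and 64.5 FPKM in shScr cells, and the share of CD33 was 24.6% in shTFEB ATRA and 31.2% in shScr ATRA cells. The number of members with at least 1 FPKM was 9 in shTFEB ATRA, 4 in labelled shTFEB vehicle, 6 in shScr ATRA and 4 in shScr vehicle cells. In bulk RNA, a change in the number of cells that hold a transcript and a change in the transcript per cell cannot be told apart.

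The order of the members changed accordingly. In shTFEB ATRA cells the order was SIGLEC10, CD33, SIGLEC1, SIGLEC14, SIGLEC5, SIGLEC8, SIGLEC7, SIGLEC6, CD22 and SIGLEC9, in which 3 neighbouring pairs had overlapping bounds (SIGLEC10 with CD33, SIGLEC8 with SIGLEC7, SIGLEC6 with CD22). In shScr ATRA cells SIGLEC10 and CD33 again led with overlapping bounds, SIGLEC14, SIGLEC5 and SIGLEC7 followed, and SIGLEC1 ranked below CD22. In the labelled shTFEB vehicle group SIGLEC10, SIGLEC14 and SIGLEC5 followed CD33, and in shScr vehicle cells SIGLEC5, SIGLEC10 and SIGLEC14 did so, with bounds that overlapped between each neighbouring pair of these 3. SIGLEC1 was the lowest of the 10 in shScr vehicle cells and the third highest in shTFEB ATRA cells.

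**Figure D1:**
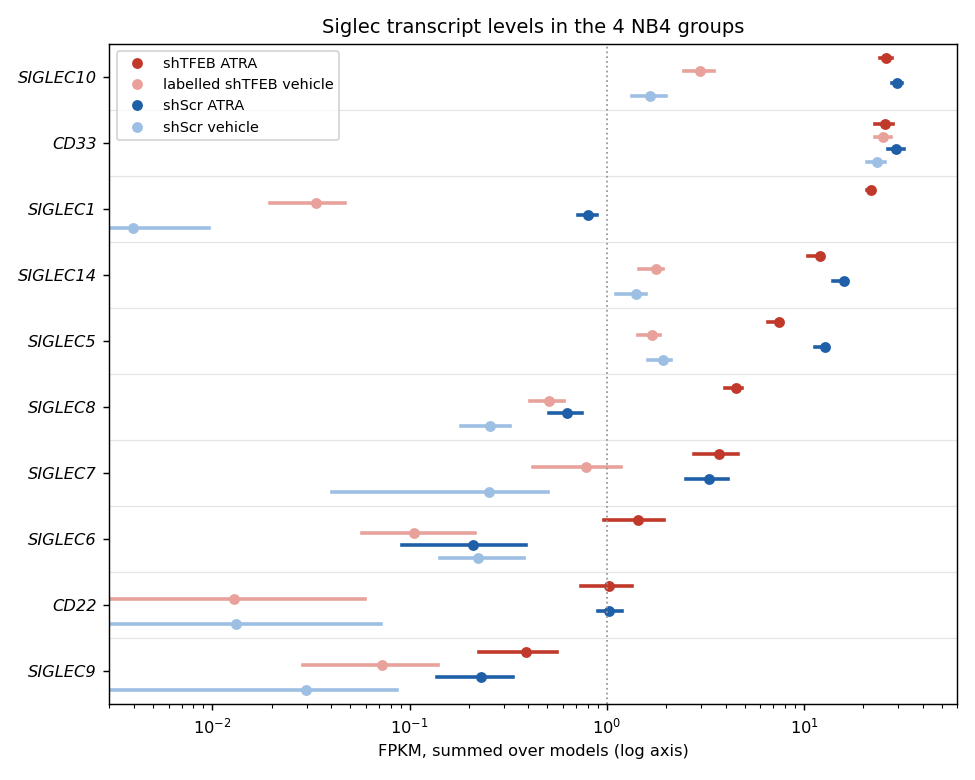
Level of each of the 10 Siglecs in the 4 groups, as FPKM summed over transcript models on a log axis. Points are the deposited values, bars run from the summed lower to the summed upper bounds (a bar that meets the left edge has a lower bound below the axis), and the dotted line marks 1 FPKM; CD33 lies near 25 FPKM in every group, while SIGLEC1 is at 21.8 FPKM in shTFEB ATRA and at 0.00394 FPKM in shScr vehicle cells.

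A set of Siglecs was higher with ATRA in both lines. Rose and fell refer to a log2 ratio of at least 1 in size, the 2-fold mark, reached after 1 FPKM was added. In shTFEB cells 8 of 10 members rose and 0 fell, where 22.0% of the 11052 compared genes passed the mark (11.5% rose and 10.5% fell); the 2 members that did not were CD33 and SIGLEC9. In shScr cells 5 of 10 members rose (CD22, SIGLEC5, SIGLEC7, SIGLEC10 and SIGLEC14) and 0 fell, where 27.7% of compared genes passed the mark (12.5% rose and 15.2% fell). The median log2 ratio over the 10 members was 1.52 in shTFEB cells and 0.92 in shScr cells, beside -0.13 and -0.15 over the compared genes. Genes were compared if their mean over the groups was at least 1 FPKM; 7 members met this, and SIGLEC6, CD22 and SIGLEC9 did not. The member counts take all 10 genes, so SIGLEC6 and CD22 in shTFEB cells and CD22 in shScr cells are counted as risen although the compared genes, which give the percentages, were held to the mean. Counts of other gene lists below take the genes of a list that met it.

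SIGLEC10, an inhibitory receptor that binds CD24 (hg19 chr19:51913275-51921057), had 26.0 FPKM in shTFEB ATRA cells, 2.97 FPKM in labelled shTFEB vehicle cells, 29.6 FPKM in shScr ATRA cells and 1.65 FPKM in shScr vehicle cells. It was 8.75-fold higher with ATRA in shTFEB cells and 18.0-fold higher in shScr cells. The ATRA groups overlapped in their bounds (24.2 to 27.9 FPKM in shTFEB ATRA and 27.8 to 31.6 FPKM in shScr ATRA), whereas the vehicle groups did not (2.46 to 3.48 FPKM in labelled shTFEB vehicle and 1.34 to 1.99 FPKM in shScr vehicle), with a 1.80-fold higher level in the labelled shTFEB group. A model without a symbol, NM_001256795 at hg19 chr19:51919160-51920679, lies inside the SIGLEC10 locus and had 25.3 FPKM in shTFEB ATRA, 2.57 FPKM in labelled shTFEB vehicle, 26.7 FPKM in shScr ATRA and 1.52 FPKM in shScr vehicle cells. Whether strand was used in counting is not stated, so reads that overlap both cannot be told apart.

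The paired receptors SIGLEC14 and SIGLEC5 rose together. SIGLEC14, the DAP12-coupled activating receptor of neutrophils and monocytes (hg19 chr19:52145806-52150132), had 12.1 FPKM in shTFEB ATRA, 1.77 FPKM in labelled shTFEB vehicle, 16.0 FPKM in shScr ATRA and 1.40 FPKM in shScr vehicle cells. SIGLEC5, its inhibitory counterpart (hg19 chr19:52114756-52133727), had 7.46 FPKM in shTFEB ATRA, 1.70 FPKM in labelled shTFEB vehicle, 12.8 FPKM in shScr ATRA and 1.93 FPKM in shScr vehicle cells. Both ATRA groups lay above both vehicle groups for each gene. With ATRA, SIGLEC14 was 6.81-fold higher in shTFEB cells and 11.4-fold higher in shScr cells, and SIGLEC5 was 4.38-fold higher in shTFEB cells and 6.60-fold higher in shScr cells. Summed as 1 value, which depends less on how shared reads were split but not wholly, since FPKM are per length and the models differ in length, the pair had 19.5 FPKM in shTFEB ATRA, 3.47 FPKM in labelled shTFEB vehicle, 28.7 FPKM in shScr ATRA and 3.33 FPKM in shScr vehicle cells, a 5.62-fold rise in shTFEB and an 8.62-fold rise in shScr cells. The deposited FPKM of SIGLEC14 in both ATRA groups, and of SIGLEC5 in shScr ATRA cells, lies above its own deposited upper bound, so the bounds of these values are not a reliable interval.

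SIGLEC7, an inhibitory receptor of natural killer cells and monocytes (hg19 chr19:51645558-51656783), had 3.70 FPKM in shTFEB ATRA, 0.789 FPKM in labelled shTFEB vehicle, 3.29 FPKM in shScr ATRA and 0.252 FPKM in shScr vehicle cells. It rose in both lines, with log2 ratios of 1.39 in shTFEB and 1.78 in shScr cells, and the ATRA groups overlapped in their bounds. Its close relative SIGLEC9, an inhibitory receptor of neutrophils and monocytes (hg19 chr19:51628137-51639520), stayed under 1 FPKM throughout: 0.390 FPKM in shTFEB ATRA, 0.0723 FPKM in labelled shTFEB vehicle, 0.231 FPKM in shScr ATRA and 0.0297 FPKM in shScr vehicle cells. Its log2 ratios of 0.37 in shTFEB and 0.26 in shScr cells did not reach the 2-fold mark, although the bounds of ATRA and vehicle lay apart in each line. At this level the added 1 FPKM sets most of the ratio: with 0.1 FPKM added in its place the log2 ratios were 1.51 in shTFEB and 1.35 in shScr cells. Of 10 natural killer and T cell markers, CD3E, CD2, KLRF1, GNLY and NCR1 stayed under 1 FPKM in all groups, and the summed level of the list was 172 FPKM in shTFEB ATRA, 47.5 FPKM in labelled shTFEB vehicle, 196 FPKM in shScr ATRA and 53.0 FPKM in shScr vehicle cells. Of its 4 genes that met the mean, 2 rose and 1 fell in shTFEB cells, and 1 rose and 1 fell in shScr cells. NKG7 held most of the sum under ATRA (111 FPKM in shTFEB ATRA and 168 FPKM in shScr ATRA cells), and CD3D of T cells fell in both lines, to 0.368 FPKM in shTFEB ATRA against 2.71 FPKM in labelled shTFEB vehicle and to 0.514 FPKM in shScr ATRA against 3.76 FPKM in shScr vehicle cells. The part of such cells in the SIGLEC7 level was not tested.

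CD22, the inhibitory co-receptor of B cells, appeared with ATRA at the same low level in both lines. It (hg19 chr19:35820069-35838264) had 1.03 FPKM in shTFEB ATRA, 0.0128 FPKM in labelled shTFEB vehicle, 1.03 FPKM in shScr ATRA and 0.0132 FPKM in shScr vehicle cells, and the lower bound was 0 in both vehicle groups. The log2 ratio was 1.00 in each line, so its count among the risen members rests on values that only just reach the mark. Of 11 B cell markers, MS4A1 and BLK were listed at 0 in every group and PAX5, CR2, EBF1, FCRL1 and VPREB1 stayed under 1 FPKM. Their summed level was 21.1 FPKM in shTFEB ATRA, 10.7 FPKM in labelled shTFEB vehicle, 19.6 FPKM in shScr ATRA and 12.2 FPKM in shScr vehicle cells. Most of it under ATRA came from CD79A (19.7 FPKM in shTFEB ATRA and 18.5 FPKM in shScr ATRA cells). Of the 2 genes of the list that met the mean, 1 rose and 1 fell in each line. CD79B, the gene that fell, had 0.208 FPKM in shTFEB ATRA, 7.19 FPKM in labelled shTFEB vehicle, 0.551 FPKM in shScr ATRA and 8.85 FPKM in shScr vehicle cells. The part of B cell transcripts in the CD22 level was not tested.

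**Figure D2:**
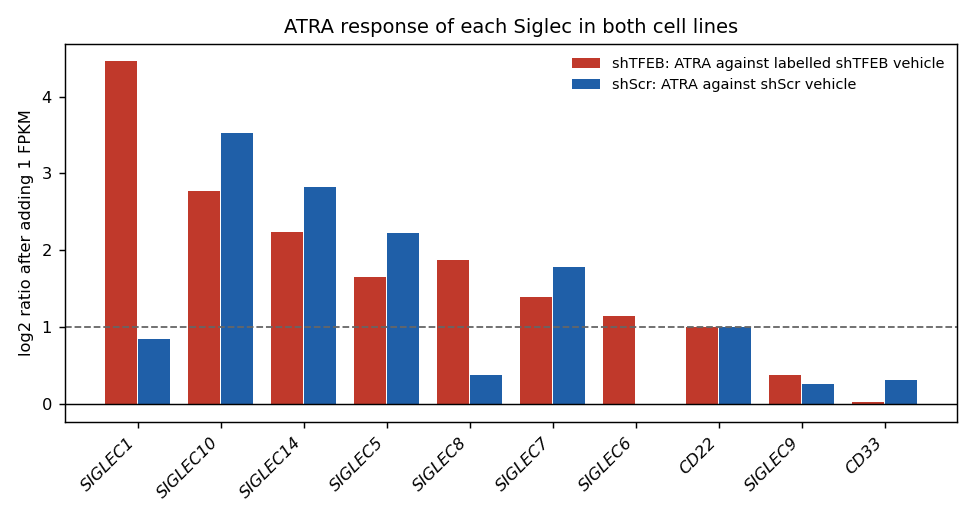
Log2 ratio of ATRA to vehicle for each Siglec in shTFEB cells (red) and shScr cells (blue), after 1 FPKM was added to each value. The dashed line is the 2-fold mark; SIGLEC10, SIGLEC14, SIGLEC5 and SIGLEC7 pass it with the longer bar in shScr cells, and SIGLEC1, SIGLEC8 and SIGLEC6 pass it in shTFEB cells alone.

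The 3 remaining members were high in shTFEB ATRA cells above all. SIGLEC1 (sialoadhesin, CD169), an adhesion receptor of macrophages known as an interferon-inducible gene (hg19 chr20:3667617-3687775), had 21.8 FPKM in shTFEB ATRA, 0.0336 FPKM in labelled shTFEB vehicle, 0.803 FPKM in shScr ATRA and 0.00394 FPKM in shScr vehicle cells. The shTFEB ATRA group stood alone: its lower bound of 20.8 FPKM was 23.4 times the upper bound of the next highest group, shScr ATRA. SIGLEC1 was 27.1-fold higher in shTFEB ATRA than in shScr ATRA cells, a log2 ratio of 3.66 that 33 of the compared genes exceeded. In shScr cells the bounds with ATRA (0.717 to 0.889 FPKM) and with vehicle (0 to 0.00956 FPKM) lay apart as well, but at a level under 1 FPKM that gave a log2 ratio of 0.85.

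SIGLEC8, an inhibitory receptor of eosinophils and mast cells (hg19 chr19:51954251-51961708), had 4.52 FPKM in shTFEB ATRA, 0.507 FPKM in labelled shTFEB vehicle, 0.632 FPKM in shScr ATRA and 0.255 FPKM in shScr vehicle cells. It was 8.92-fold higher with ATRA in shTFEB cells and 2.48-fold higher in shScr cells, and 7.16-fold higher in shTFEB ATRA than in shScr ATRA cells. The vehicle groups already differed, with bounds of 0.408 to 0.605 FPKM in labelled shTFEB vehicle and 0.183 to 0.322 FPKM in shScr vehicle cells and a 1.99-fold higher level in the labelled shTFEB group. SIGLEC6, a leptin-binding Siglec of placental trophoblast and mast cells (hg19 chr19:52022784-52035110), had 1.43 FPKM in shTFEB ATRA, 0.106 FPKM in labelled shTFEB vehicle, 0.210 FPKM in shScr ATRA and 0.222 FPKM in shScr vehicle cells. Its bounds of 0.970 to 1.94 FPKM in shTFEB ATRA cells lay above those of the other groups, whose bounds all overlapped, and the level was 6.81-fold higher than in shScr ATRA cells.

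Set against shScr cells under the same treatment, 3 of 10 members were higher by the 2-fold mark in shTFEB ATRA cells (SIGLEC1, SIGLEC8 and SIGLEC6) and 0 were lower, where 4.25% of compared genes passed the mark (2.67% higher and 1.58% lower). Members below the mark leaned either way: SIGLEC5 in shTFEB ATRA cells was 0.585 times and SIGLEC14 0.755 times the level in shScr ATRA cells, with a ratio of 0.679 for their sum. Their deposited bounds lay apart, but for SIGLEC14 in both ATRA groups and SIGLEC5 in shScr ATRA these are the bounds that do not enclose the value. The bounds of SIGLEC10, CD33, SIGLEC7, CD22 and SIGLEC9 overlapped. The median over the 10 members was 0.06 in log2, as it was over all compared genes. Between the vehicle groups 0 of 10 members passed the mark in either direction, where 1.85% of compared genes did (1.06% higher and 0.787% lower in the labelled shTFEB group). The bounds of SIGLEC1, SIGLEC8 and SIGLEC10 lay apart, each higher in labelled shTFEB vehicle. How many of all compared genes had bounds apart was not counted, either between the vehicle groups or between the ATRA groups.

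**Figure D3:**
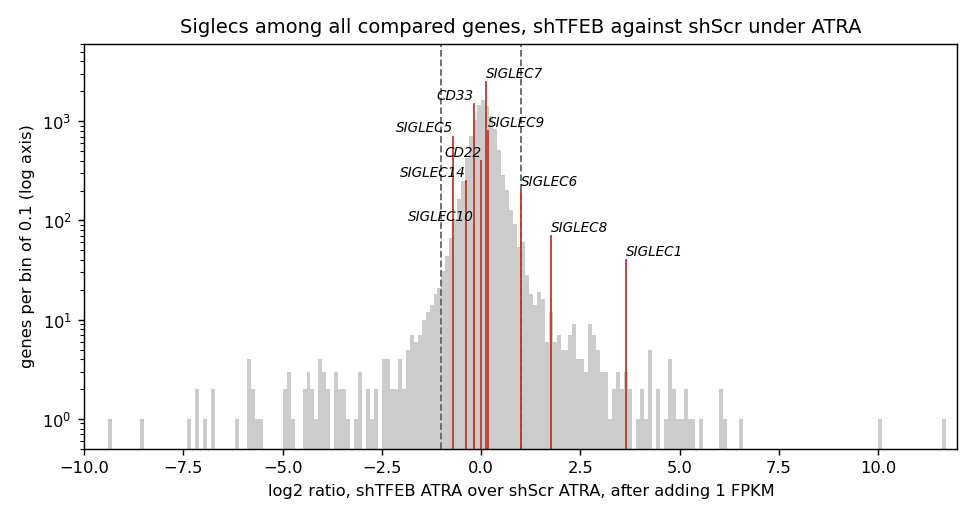
Distribution of the log2 ratio of shTFEB ATRA over shScr ATRA for the 11052 compared genes (grey, log axis of genes per bin), with each Siglec as a red line whose height only sets its label apart. Dashed lines mark 2-fold; SIGLEC1 at 3.66, SIGLEC8 at 1.76 and SIGLEC6 at 1.01 lie beyond the upper one and the other 7 lie between the lines.

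The difference of the ATRA responses, shTFEB minus shScr, was above the mark for the same 3 genes, with log2 values of 3.62 for SIGLEC1, 1.50 for SIGLEC8 and 1.15 for SIGLEC6 where 4.29% of compared genes passed it (2.42% above and 1.86% below). It shares tables with each of the other comparisons and is no separate evidence. SIGLEC10 (-0.77), SIGLEC14 (-0.59), SIGLEC5 (-0.58), SIGLEC7 (-0.38) and CD33 (-0.29) had the smaller response in shTFEB cells without reaching the mark, CD22 was at -0.00 and SIGLEC9 at 0.12.

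Markers that moved beside these genes are given as values. Of 28 interferon-stimulated genes, of which 27 met the mean of 1 FPKM, 27 rose with ATRA in shTFEB cells and 20 in shScr cells, and 26 were higher in shTFEB ATRA than in shScr ATRA cells; their summed level was 5673 FPKM in shTFEB ATRA, 220 FPKM in labelled shTFEB vehicle, 1106 FPKM in shScr ATRA and 202 FPKM in shScr vehicle cells. SIGLEC1 shared the order of the ATRA groups with this list, and the part of an interferon response in its level was not tested. Of 10 eosinophil markers, of which 8 met the mean, 4 were higher and 0 lower in shTFEB ATRA than in shScr ATRA cells: EPX, the eosinophil peroxidase, had 42.8 FPKM in shTFEB ATRA, 82.8 FPKM in labelled shTFEB vehicle, 3.79 FPKM in shScr ATRA and 5.78 FPKM in shScr vehicle cells. CLC, the Charcot-Leyden crystal protein, had 771 FPKM in shTFEB ATRA, 1.58 FPKM in labelled shTFEB vehicle, 74.2 FPKM in shScr ATRA and 0.120 FPKM in shScr vehicle cells. The summed level of the eosinophil list was 1283 FPKM in shTFEB ATRA, 1752 FPKM in labelled shTFEB vehicle, 196 FPKM in shScr ATRA and 1270 FPKM in shScr vehicle cells, with ALOX15 under 1 FPKM in all groups. Most of that sum in the vehicle groups was PRG2, the major basic protein of eosinophil granules, with 402 FPKM in shTFEB ATRA, 1548 FPKM in labelled shTFEB vehicle, 69.8 FPKM in shScr ATRA and 1094 FPKM in shScr vehicle cells. CLC was highest in shTFEB ATRA, as SIGLEC8 was. ADGRE1 is an eosinophil adhesion receptor. It had 16.7 FPKM in shTFEB ATRA, 1.32 FPKM in labelled shTFEB vehicle, 15.9 FPKM in shScr ATRA and 0.548 FPKM in shScr vehicle cells. Between the ATRA groups its log2 ratio was 0.06. With ATRA, 4 of the 8 eosinophil genes that met the mean rose and 2 fell in shTFEB cells. In shScr cells 3 rose and 3 fell. Of 12 basophil and mast cell markers, 8 stayed under 1 FPKM, FCER1A was listed at 0 throughout, and HDC, the histidine decarboxylase that makes histamine, had 17.0 FPKM in shTFEB ATRA, 96.1 FPKM in labelled shTFEB vehicle, 1.29 FPKM in shScr ATRA and 10.4 FPKM in shScr vehicle cells. MS4A3 was instead lower in the shTFEB groups, with 3.41 FPKM in shTFEB ATRA, 51.8 FPKM in labelled shTFEB vehicle, 7.73 FPKM in shScr ATRA and 171 FPKM in shScr vehicle cells. Of the 4 genes of this list that met the mean, 0 rose and 3 fell with ATRA in each line. Between the ATRA groups 2 were higher in shTFEB cells and 0 lower. The list summed to 28.6 FPKM in shTFEB ATRA, 173 FPKM in labelled shTFEB vehicle, 13.5 FPKM in shScr ATRA and 195 FPKM in shScr vehicle cells. Beside SIGLEC6, 6 of 7 placental and other non-blood markers were in the tables, and CGA, CGB3, PSG1 and ALB of these stayed under 1 FPKM in all groups. The part of any of these cell types in the Siglec levels was not tested.

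Maturation markers moved with ATRA in both lines as well. Of 15 neutrophil markers, of which 11 met the mean, 8 rose and 0 fell in each line, with summed levels of 998 FPKM in shTFEB ATRA, 182 FPKM in labelled shTFEB vehicle, 1440 FPKM in shScr ATRA and 200 FPKM in shScr vehicle cells. CXCR1 and LTF of this list stayed under 1 FPKM in all groups. Of 13 monocyte and macrophage markers, of which 7 met the mean, 5 rose and 1 fell in shTFEB cells and 5 rose and 2 fell in shScr cells, with sums of 232 FPKM in shTFEB ATRA, 107 FPKM in labelled shTFEB vehicle, 226 FPKM in shScr ATRA and 86.7 FPKM in shScr vehicle cells, while CD163, MRC1, VCAN, MARCO and CCR2 stayed under 1 FPKM. The part of maturation in the rise of SIGLEC10, SIGLEC14, SIGLEC5 and SIGLEC7 was not tested.

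The models behind each gene were unevenly filled. The 10 members have 30 models, of which 6 were listed at 0 in all groups, and SIGLEC1, SIGLEC5, SIGLEC8 and SIGLEC14 have 1 model each. For CD33 the full-length NM_001772 had 11.9 FPKM in shTFEB ATRA, 13.8 FPKM in labelled shTFEB vehicle, 12.7 FPKM in shScr ATRA and 10.1 FPKM in shScr vehicle cells. NM_001082618, which skips the V-set exon, had 8.80 FPKM in shTFEB ATRA, 6.36 FPKM in labelled shTFEB vehicle, 11.4 FPKM in shScr ATRA and 7.95 FPKM in shScr vehicle cells. The skipped form thus took 34.4% of CD33 in shTFEB ATRA, 25.2% in labelled shTFEB vehicle, 39.1% in shScr ATRA and 34.0% in shScr vehicle cells, and the form with another last exon, NM_001177608, stayed between 4.95 and 5.34 FPKM. Shares between models are Cufflinks estimates from reads that mostly fit several models, and they are given without an interval.

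For SIGLEC10 most of the level fell to NM_033130 (11.7 FPKM in shTFEB ATRA, 0.812 FPKM in labelled shTFEB vehicle, 13.1 FPKM in shScr ATRA and 0.553 FPKM in shScr vehicle cells) and to NM_001171161 (10.4 FPKM in shTFEB ATRA, 1.54 FPKM in labelled shTFEB vehicle, 10.3 FPKM in shScr ATRA and 1.09 FPKM in shScr vehicle cells). NM_001171157 had 3.92 FPKM in shTFEB ATRA and 6.26 FPKM in shScr ATRA cells, against 0.626 FPKM in labelled shTFEB vehicle and a listed 0 in shScr vehicle cells, and the gene's 3 further models were at 0 throughout. The equal totals of CD22 under ATRA were made of different models: NM_001771 held 53.3% in shTFEB ATRA and 100% in shScr ATRA cells, with NM_001278417 (35.5%) and NM_001185099 (11.2%) making up the rest in shTFEB ATRA cells. For SIGLEC7, NM_016543 had 1.30 FPKM in shTFEB ATRA and 0.480 FPKM in shScr ATRA cells, and NM_014385 had 1.40 FPKM in shTFEB ATRA and 1.66 FPKM in shScr ATRA cells. SIGLEC6 was spread over 3 models in shTFEB ATRA cells, NM_001177547 (0.667 FPKM), NM_198845 (0.437 FPKM) and NM_198846 (0.330 FPKM), while the vehicle groups held NM_001177549 alone (0.106 FPKM in labelled shTFEB vehicle and 0.222 FPKM in shScr vehicle cells). Models listed at 0 had upper bounds of up to 0.0370 FPKM in shTFEB ATRA cells, so at these low levels the model mix is not firmly determined.

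**Figure D4:**
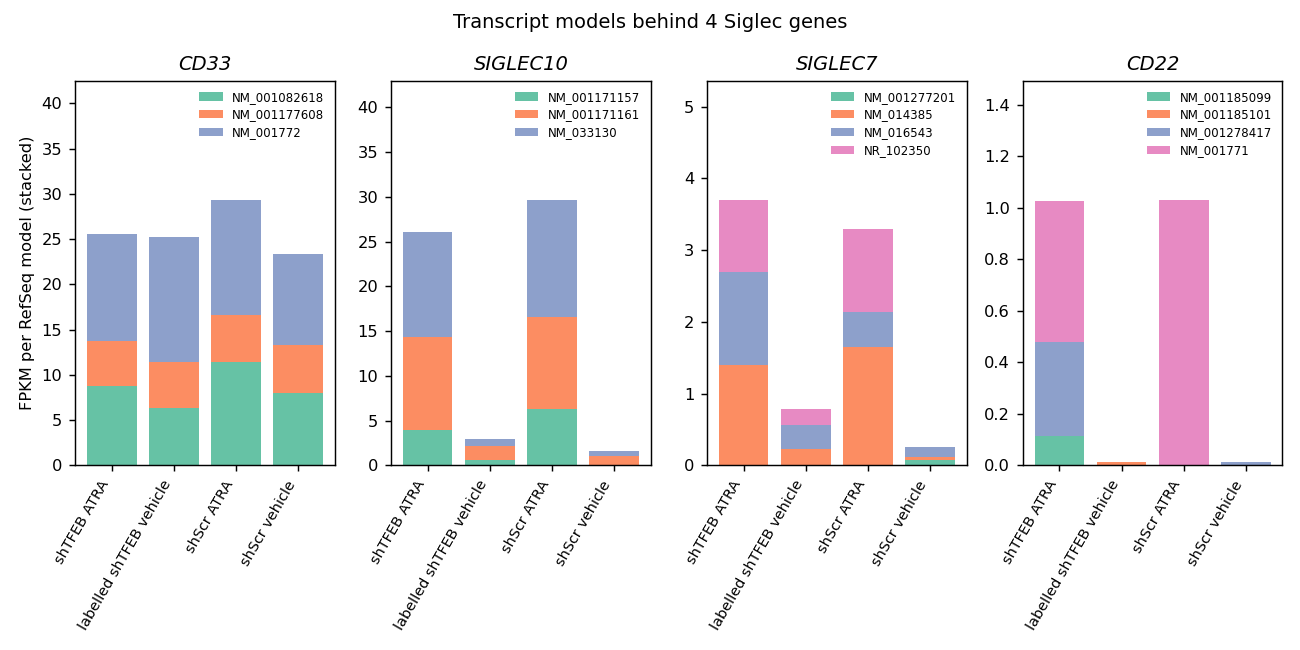
FPKM of each RefSeq model, stacked, for CD33, SIGLEC10, SIGLEC7 and CD22 in the 4 groups, each panel with its own linear axis from 0. The 3 CD33 models are present in every group, while the CD22 bar of shTFEB ATRA is split over 3 models and that of shScr ATRA consists of NM_001771.

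Siglecs outside the 10 genes showed both patterns. SIGLEC12, a human Siglec that has lost sialic acid binding, had 21.6 FPKM in shTFEB ATRA, 1.05 FPKM in labelled shTFEB vehicle, 9.94 FPKM in shScr ATRA and 1.09 FPKM in shScr vehicle cells; it rose in both lines (log2 ratios of 3.47 in shTFEB and 2.39 in shScr cells) and was higher in shTFEB ATRA than in shScr ATRA cells (1.05). SIGLEC11 had 1.76 FPKM in shTFEB ATRA, 0.347 FPKM in labelled shTFEB vehicle, 1.34 FPKM in shScr ATRA and 0.401 FPKM in shScr vehicle cells, and reads within its identical run with SIGLEC10 cannot be assigned to 1 of them. The pseudogene SIGLEC17P did not pass the mark in any comparison (4.17 FPKM in shTFEB ATRA, 7.01 FPKM in labelled shTFEB vehicle, 4.41 FPKM in shScr ATRA and 4.11 FPKM in shScr vehicle cells). The myelin Siglec MAG and SIGLEC15 stayed near 0, and SIGLEC16 was not analysed here.

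All members but CD22 and SIGLEC1, 8 genes, lie within 521996 bases of chromosome 19 (hg19 51628137 to 52150132). Of these 8 genes 6 rose in shTFEB cells and 4 in shScr cells, and 0 fell, where 11.5% of compared genes rose in shTFEB and 12.5% in shScr cells. Of 9 other genes in the same interval that are not Siglecs, of which 4 met the mean, 1 rose in each line: NKG7, a granule protein of cytotoxic cells, had 111 FPKM in shTFEB ATRA, 26.4 FPKM in labelled shTFEB vehicle, 168 FPKM in shScr ATRA and 23.6 FPKM in shScr vehicle cells. Of the same interval, ETFB, a mitochondrial electron-transfer flavoprotein subunit, and ZNF175, a zinc finger protein, did not pass the mark. CD33 stayed level in the same interval.

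**Figure D5:**
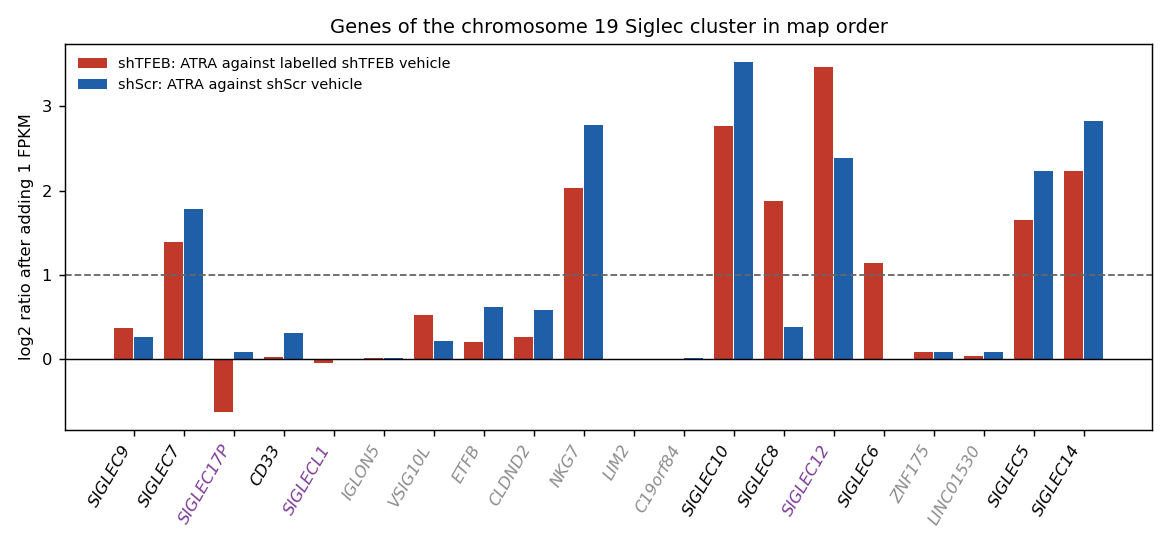
Log2 ratio of ATRA to vehicle in shTFEB cells (red) and shScr cells (blue) for the genes of the chromosome 19 interval, in map order and evenly spaced, after 1 FPKM was added. Names of the 8 members are black, other Siglecs purple and further genes grey; the dashed line is the 2-fold mark, which NKG7 alone of the grey genes passes.

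The promoters of SIGLEC14 and SIGLEC5 are near copies, like the start of their coding sequences. Whether this bears on their levels was not tested. In the 250 bases before each annotated start (RefSeq, GRCh38.p14, minus strand), 195 bases could be aligned at 97.4% identity. The last 113 bases before the start, from position -113 to -1, were identical and are printed in capitals. SIGLEC14 is read from chr19:51646826-51647075 and SIGLEC5 from chr19:51630402-51630651.
SIGLEC14: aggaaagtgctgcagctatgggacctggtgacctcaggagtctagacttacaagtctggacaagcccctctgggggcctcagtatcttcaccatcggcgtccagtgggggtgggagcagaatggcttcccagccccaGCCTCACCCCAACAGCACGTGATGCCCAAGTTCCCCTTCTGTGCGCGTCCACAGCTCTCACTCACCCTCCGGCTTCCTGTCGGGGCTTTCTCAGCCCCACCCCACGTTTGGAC
SIGLEC5: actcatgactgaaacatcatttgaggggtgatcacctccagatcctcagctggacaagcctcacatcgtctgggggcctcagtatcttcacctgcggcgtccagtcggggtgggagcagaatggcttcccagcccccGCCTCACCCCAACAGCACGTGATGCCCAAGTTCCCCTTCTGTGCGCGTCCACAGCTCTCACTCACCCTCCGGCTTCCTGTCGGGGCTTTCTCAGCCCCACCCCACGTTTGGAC
Apart from this pair the longest identical run between promoters of the 9 members in the promoter table was 25 bases, between SIGLEC8 and SIGLEC9; the table used holds no SIGLEC1 promoter. The windows were searched on both strands for 5 motifs, chosen with results known. The core of the PU.1 and ETS site, GAGGAA, was found in 5 of 9 member windows (SIGLEC6, SIGLEC7, SIGLEC8, SIGLEC9 and CD33), where 23.4% of 27305 promoters of this length hold it. The SIGLEC7 window runs into the gene itself, with the start of its coding sequence after the match. The SIGLEC8 and SIGLEC9 windows share 83.7% identity over 221 aligned bases, so their matches are not independent. The count of 5 can therefore not be set directly against the 23.4%. As examples, the SIGLEC8 window (chr19:51458455-51458704, minus strand) and the CD33 window (chr19:51224830-51225079, plus strand) are shown with the motif, here on the opposite strand as TTCCTC, in capitals.
SIGLEC8: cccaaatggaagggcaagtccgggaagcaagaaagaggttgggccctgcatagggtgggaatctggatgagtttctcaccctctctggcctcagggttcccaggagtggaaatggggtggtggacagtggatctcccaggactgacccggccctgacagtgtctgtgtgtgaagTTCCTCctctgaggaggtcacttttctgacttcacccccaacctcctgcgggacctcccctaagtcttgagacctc
CD33: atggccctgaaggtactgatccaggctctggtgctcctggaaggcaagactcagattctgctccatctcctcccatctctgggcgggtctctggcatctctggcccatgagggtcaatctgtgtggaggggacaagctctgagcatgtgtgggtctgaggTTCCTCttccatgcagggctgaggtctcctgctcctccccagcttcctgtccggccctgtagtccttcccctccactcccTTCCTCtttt
SIGLEC8 rose in shTFEB cells and CD33 stayed level. Any link between the motif and these levels was not tested. The C/EBP core TTNNGNAA was found in 1 of 9 (CD22; 33.6% of all promoters), and no match was found in the member windows for the interferon-stimulated response element core (GAAA, any 2 bases, GAAA; 3.07% of all promoters), the retinoid half-site repeat (GGTCA, any 6 bases, GGTCA; 0.0513%) or the TFEB-type site TCACGTGA (0.890%). The search for TCACGTGA was strict. The identical block of SIGLEC14 and SIGLEC5 printed above holds GCACGTGA, which has the same inner CACGTG and differs in the first base. How many promoters hold CACGTG was not counted. No searched motif overlapped another in these windows. A match is a run of letters and not a binding site.

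The machinery around the Siglecs moved in part. Of 16 genes for their signalling partners, of which 12 met the mean, 7 rose and 0 fell with ATRA in each line, and 0 passed the mark between shTFEB ATRA and shScr ATRA cells. TYROBP, which encodes DAP12, the adaptor of SIGLEC14, had 201 FPKM in shTFEB ATRA, 19.2 FPKM in labelled shTFEB vehicle, 157 FPKM in shScr ATRA and 12.1 FPKM in shScr vehicle cells. FGR, a Src-family kinase of myeloid cells that can phosphorylate receptor tails, had 142 FPKM in shTFEB ATRA, 0.204 FPKM in labelled shTFEB vehicle, 238 FPKM in shScr ATRA and 0.453 FPKM in shScr vehicle cells. SOCS3, which binds phosphorylated Siglec tails and directs their degradation, had 3.89 FPKM in shTFEB ATRA and 4.35 FPKM in shScr ATRA cells and at most 0.0952 FPKM in the vehicle groups.

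Sialic acid, the ligand, is made, attached and removed by further genes. Of 9 genes of its synthesis and handling, of which 8 met the mean, 0 rose and 0 fell in any comparison; GNE, the first enzyme of the pathway, had 4.03 FPKM in shTFEB ATRA, 6.22 FPKM in labelled shTFEB vehicle, 3.57 FPKM in shScr ATRA and 6.68 FPKM in shScr vehicle cells. Of 20 sialyltransferases, which attach the sugar and of which 10 met the mean, 1 rose in shTFEB cells and 2 in shScr cells: ST3GAL5, the GM3 ganglioside synthase, had 3.55 FPKM in shTFEB ATRA, 0.927 FPKM in labelled shTFEB vehicle, 3.19 FPKM in shScr ATRA and 0.266 FPKM in shScr vehicle cells, and ST3GAL2 passed the mark in shScr cells alone. Of 5 genes, the sialidases and their partner CTSA, of which 3 met the mean, 1 rose in shTFEB cells, and 2 rose and 1 fell in shScr cells. NEU1, the lysosomal sialidase, rose in both, with 61.1 FPKM in shTFEB ATRA, 15.2 FPKM in labelled shTFEB vehicle, 71.5 FPKM in shScr ATRA and 15.4 FPKM in shScr vehicle cells. CTSA, which protects NEU1 in the lysosome, rose in shScr cells alone (log2 ratio of 1.22, and 0.84 in shTFEB cells), and the membrane sialidase NEU3 fell there (-1.03, and -0.91 in shTFEB cells).

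Of 11 glycoproteins known to carry Siglec ligands, of which 8 met the mean, 4 rose and 1 fell with ATRA in shTFEB cells, and 5 rose and 2 fell in shScr cells. CD52, a sialylated lymphocyte and myeloid antigen that binds SIGLEC10 in its soluble form, had 677 FPKM in shTFEB ATRA, 3.46 FPKM in labelled shTFEB vehicle, 373 FPKM in shScr ATRA and 2.48 FPKM in shScr vehicle cells. LGALS3BP, a secreted glycoprotein that binds several Siglecs, had 93.8 FPKM in shTFEB ATRA, 4.76 FPKM in labelled shTFEB vehicle, 50.3 FPKM in shScr ATRA and 8.92 FPKM in shScr vehicle cells. Both were highest in shTFEB ATRA cells, though neither passed the mark against shScr ATRA cells. CD44, named after its values were seen, was the 1 carrier past the mark between the ATRA groups, with 49.8 FPKM in shTFEB ATRA and 125 FPKM in shScr ATRA cells.

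Genes whose pattern over the 4 groups came closest to a member were sought for the 3 members with the widest range, by the root mean square distance between log2(FPKM + 1) values centred on their mean, among 10596 genes. For SIGLEC1 they were XAF1 (distance 0.21), IFI44L (0.23) and GBP1 (0.30), of which IFI44L had 24.8 FPKM in shTFEB ATRA, 0.0328 FPKM in labelled shTFEB vehicle, 0.335 FPKM in shScr ATRA and a listed 0 in shScr vehicle cells. For SIGLEC10 they were ADGRE1 (0.09), ZNF385A (0.09) and APBB1IP (0.10), and for SIGLEC14 they were ABCA1 (0.04), L1CAM (0.04) and SQSTM1 (0.07). ABCA1 had 15.6 FPKM in shTFEB ATRA, 2.78 FPKM in labelled shTFEB vehicle, 21.6 FPKM in shScr ATRA and 2.18 FPKM in shScr vehicle cells. A likeness over 4 values is a description of these tables.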

How the data were processed

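RNA of 4 groups of NB4 cells, labelled with 2 samples each, was sequenced from TruSeq libraries. Groups were read from the sample descriptions and checked against the treatment and knockdown fields; the titles of both shScr ATRA samples also carry the word vehicle. The FPKM values and their bounds were made by the authors and deposited as 1 table of 65986 transcript models per group: per the submitters' processing notes, TopHat, Cufflinks and Cuffdiff were used with hg19, and versions, strand handling and how samples were combined are not given in the sources used here. Depth is unknown beyond the relative values given.

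FPKM, and likewise their lower and upper bounds, were summed over models that share a symbol (39841 of 41159 RefSeq accessions, 96.8%, matched a RefSeq table of GRCh38.p14, used for names alone). Ratios are log2((FPKM + 1)/(FPKM + 1)), counted at 2-fold over genes with a mean of at least 1 FPKM and over all 10 members whatever their mean, with no test because each group has 1 value. All 10 members were described; of each other list, up to 4 genes with the largest ratio could be named, beside members listed at 0 or under 1 FPKM. Some of these genes are not reported here. ETFB, ZNF175 and the other genes of the chromosome 19 interval are named by position. Members, lists and motifs were chosen with earlier results of these data known. Alternatives were other pseudocounts, filters, scalings, the highest model, model status and interval overlap, and, added after the data were seen, SIGLEC5 and SIGLEC14 as 1 sum. The counting step was tested on simulated data. Sequences came from RefSeq and GENCODE v29 (GRCh38), matched by symbol and accession and never by hg19 coordinates; python 3.11.15, pandas 2.3.3, numpy 2.4.6, matplotlib 3.10.9 and biopython 1.88 were used.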

Additional observations from a re-analysis of the deposited data

How the results depend on the processing

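No paired analysis was possible because each deposited table holds 1 value per group and its columns carry no replicate number; leaving out a replicate was not possible for the same reason. Of 350 member ratios under the alternatives, 326 kept their side of the 2-fold mark, 18 no longer passed it and 6 newly passed it. Part of the 326 was fixed in advance. All member models had the status OK, so the 50 ratios of that alternative could not change. The 4 members with 1 model could not change with the highest model. Interval overlap reuses the ratios as reported and only asks in addition for bounds apart. No cause was tested. The sign changed in 6, none past the mark, with sizes of at most 0.13 as reported and 0.20 under the alternative: SIGLEC6 in shScr cells under both scalings (-0.01, against 0.02 and 0.01), CD33 in shTFEB cells (0.02, against -0.20) and SIGLEC7 between ATRA groups (0.13, against -0.15) with the highest model, SIGLEC5 between vehicle groups as a sum with SIGLEC14 (-0.12, against 0.05) and CD22 in the difference of responses with 0.1 FPKM added (about 0). With 0.1 FPKM added, 8 members rose with ATRA in shScr cells, where 1610 compared genes rose and 1957 fell (SIGLEC1 at 3.12, SIGLEC8 at 1.04 and SIGLEC9 at 1.35 were new). SIGLEC9 also rose in shTFEB cells (1.51), where 1439 genes rose and 1451 fell. Between the vehicle groups 1 member (SIGLEC7, 1.33) was higher, where 211 genes were higher and 124 lower. In the difference of responses 1 member was below the mark (SIGLEC7, -1.17), where 283 genes were below and 321 above. With 5 FPKM added, 3 members rose in shTFEB cells (795 genes rose and 582 fell) and 3 in shScr cells (873 and 949). Then 1 member, SIGLEC1, stayed higher in shTFEB ATRA than in shScr ATRA cells (170 genes higher, 101 lower) and 1 in the difference of responses (186 genes higher, 126 lower), and 70 and 48 genes differed between the vehicle groups. With a mean of at least 5 FPKM, 67 genes were higher and 52 lower between vehicle groups, 110 lower in shTFEB ATRA than in shScr ATRA cells, and 127 lower in the difference. Requiring bounds apart left 72 higher and 50 lower between the vehicle groups. With each gene's highest model alone, 5 members rose in shTFEB cells, where 1233 genes rose and 1126 fell. CD22 (0.61), SIGLEC6 (0.59) and SIGLEC7 (0.84) no longer rose there, and SIGLEC6 missed the mark against shScr ATRA (0.54) and in the difference (0.69). Upper-quartile factors put CD22 in shTFEB cells at 0.996 and SIGLEC6 against shScr ATRA at 0.98. Median-of-ratios factors moved the median of all genes by 0.15 in shScr and 0.13 in shTFEB cells and the share of called genes that rose in shScr cells to 56.2%, against 45.2% without them. Depth per sample is unknown.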
